A study of Homo sapiens with 9 samples.

Results

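A set of 9 genes of the aryl hydrocarbon receptor (AHR) pathway and of estrogen metabolism was followed in the ER+ human breast cancer line T47D, of 27635 gene symbols measured in all. They were taken by symbol and are CYP1A1, CYP1B1, AHR, ARNT, TIPARP, NQO1, STS, HSD17B4 and HSD17B11. They were proposed with results of these same libraries in view, so their levels and differences are given as a description with no test. Bulk RNA sequencing covered 3 libraries of monoculture (MC), 3 of contact culture with HS5, a stromal line from human bone marrow that stands for mesenchymal stem cells (MSCs), and 3 of culture in HS5 conditioned medium (CMed). CMed serves to separate what MSCs release from direct contact with them. Contact culture (CC) was seeded with 10% cancer cells and 90% MSCs. By the labels, the cells spent 24 hours in full medium and 48 hours in low-glucose medium without phenol red that held 1% FBS and 10 nM β-estradiol, and no library without estradiol was analysed here. Cancer cells were separated with EpCAM beads in the co-culture condition, so contact with MSCs and passage over the beads cannot be told apart in the comparisons of CC. All cancer cells were of a single line, T47D, and all MSCs of a single line, HS5, a further limit on the model. The labels do not say whether replicates were separate cultures, so the spread between replicates may be technical.

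AHR is a transcription factor that waits in the cytoplasm in a complex of chaperones. After binding a ligand, such as a dioxin, a polycyclic aromatic hydrocarbon or a tryptophan metabolite, it enters the nucleus, pairs with ARNT and binds DNA at a short core, and the CYP1 genes are its classic targets. CYP1A1 and CYP1B1 are cytochrome P450 enzymes that hydroxylate estradiol, CYP1A1 mainly at the 2 position and CYP1B1 mainly at the 4 position in what are called catechol estrogens. Estradiol itself is made from estrone by reductive hydroxysteroid dehydrogenases, is released from stored sulfates by steroid sulfatase, and is turned back to estrone by oxidative dehydrogenases.

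The DNA core bound by AHR with ARNT is GCGTG, or CACGC on the other strand. It was searched for on both strands in the 250 bases before each RefSeq gene start (GRCh38.p14), where 8 of the 9 genes had 14 windows. CYP1B1 had no window and was not searched. In all, 5 windows of 4 genes held it, against 32.2% of all 34941 windows of that length. Each match is shown, in 30 bases of the gene's own strand with the core in capitals, because CYP1A1 and TIPARP are textbook AHR targets whose levels went opposite ways below.
CYP1A1 (chr15:74725568-74725597, minus strand): ccagggaaggagGCGTGgccacacgtacaa
TIPARP, first match (chr3:156674370-156674399, plus strand): cgcgagaaaggaCACGCcccctcgcgggag
TIPARP, second match (chr3:156674436-156674465, plus strand): cgaacgaacgcgCACGCgcgcgcagggggc
STS, first start (chrX:7147187-7147216, plus strand): ttctcaaacgttCACGCgcttaaaatgcag
STS, second start (chrX:7147653-7147682, plus strand): cgctcaaggtcgCACGCatgcgtaaccgaa
HSD17B11 (chr4:87391339-87391368, minus strand): cggccacacaccGCGTGggggctgcgcaaa
The core began 57 bases before the RefSeq start in CYP1A1 and 168 bases before it in HSD17B11. It began 208 and 142 bases before 1 of the 3 starts of TIPARP, and 91 and 47 bases before 2 of the 5 RefSeq starts of STS. The matches of CYP1A1, TIPARP and HSD17B11 lie inside the gene spans given below. Of the 250 bases of these windows, 82, 248 and 198 lie in an annotated exon, so these matches are not upstream of the annotated gene. The 2 starts of STS with the core lie upstream of the span given for STS below, and the windows of its other starts did not hold it. A longer form of the site, TNGCGTG or CACGCNA, was in none of the 14 windows and in 4.52% of all windows. The core of the antioxidant response element, TGACNNNGC or GCNNNGTCA, which NRF2 binds, was in 10.9% of all windows. Of the 14 windows, that of ARNT and 1 of the 5 of STS held it. A match is a match of letters only, and enhancers farther upstream were not searched.

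Levels are in TPM, a transcript abundance per length that is scaled to one total per library. In bulk RNA, more cells that express a gene and more of its RNA per cell cannot be told apart. Differences are log2 fold changes of TPM + 1 with their standard error (SE) from a limma fit to the 16696 genes that reached 0.5 TPM in at least 3 of the 9 libraries, and 8 of the 9 genes passed this filter. Monoculture replicate 2 stood apart from the other libraries of its group. Its correlation with them across genes was 0.924 and 0.918, against 0.958 between replicates 1 and 3, 0.944 to 0.967 within CC and 0.952 to 0.955 within CMed. Differences of the 8 genes from MC are therefore given also without it.

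RNA of some stromal genes was also higher in the contact culture libraries, and these values belong beside every comparison of CC. Of 30 stromal markers 28 were in the table, and their summed level was 48.2 to 56.8 TPM in MC, 61.6 to 76.9 TPM in CC and 35.0 to 45.2 TPM in CMed. Of the 11 that were tested, 3 were higher and 0 lower past an adjusted p of 0.05 in CC against MC by limma, with 4 at an unadjusted p under 0.05, and 1 of the 3, CAV1, reached the filter in CC libraries only. Between 9 and 13 of the 28 were at 0 in an MC library, 4 to 7 in a CC library and 11 to 14 in a CMed library. VIM, which encodes the intermediate filament vimentin, was at 1.25, 0.135 and 0.726 TPM in MC and at 11.7, 6.28 and 9.20 TPM in CC (log2 fold change 2.58, SE 0.32, limma adjusted p = 0.00288). FN1 (fibronectin) was at 7.84 ± 2.48 TPM (SD, n = 3) in MC and 19.1 ± 3.02 TPM (SD, n = 3) in CC (log2 fold change 1.22, adjusted p = 0.0203, past the threshold in 3 of 6 fits that each leave out a library). CAV1 (caveolin-1), named after its values were seen, was at 0 in every MC library and at 1.89 to 2.98 TPM in CC. S100A4, at 33.3 TPM in MC and 23.4 TPM in CC, and ENG (endoglin), at 1.20 and 0.618 TPM, did not pass (adjusted p = 0.254 and 0.517), and were named after their values were seen. COL1A1, the main chain of type I collagen, was at 4.12 ± 1.90 TPM (SD, n = 3) in MC and 3.37 ± 0.78 TPM (SD, n = 3) in CC. COL3A1, PDGFRB, THY1 and POSTN averaged under 0.5 TPM in each of the 3 groups. Fibroblasts and related stromal cells are known to express CYP1B1, libraries of HS5 cells alone were not analysed here, and the part of stromal RNA in the results below was not tested. The 20 luminal epithelial markers, which bear on the label of breast epithelium, were all tested. They summed to 3315 to 4303 TPM in MC, 2953 to 3910 TPM in CC and 3337 to 3392 TPM in CMed. EPCAM was at 189, 152 and 135 TPM on average in MC, CC and CMed. In CC against MC 3 of the 20 were higher and 2 lower by limma. PGR, the progesterone receptor, fell from a mean of 63.3 TPM in MC to 5.33 TPM in CC (log2 fold change −3.36, adjusted p = 1.57e-05) and GATA3, a luminal transcription factor, from 967 to 508 TPM (−0.93, adjusted p = 0.00584). The mucin MUC1 rose from 231 to 646 TPM (adjusted p = 0.038, 2 of 6 fits that leave out a library), the keratin KRT7 from 52.6 to 103 TPM (adjusted p = 0.0425, 1 of 6) and the trefoil factor TFF1 from 0.219 to 6.68 TPM (adjusted p = 0.00198). These 5 were named as the calls of the list.

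**Figure D1:**
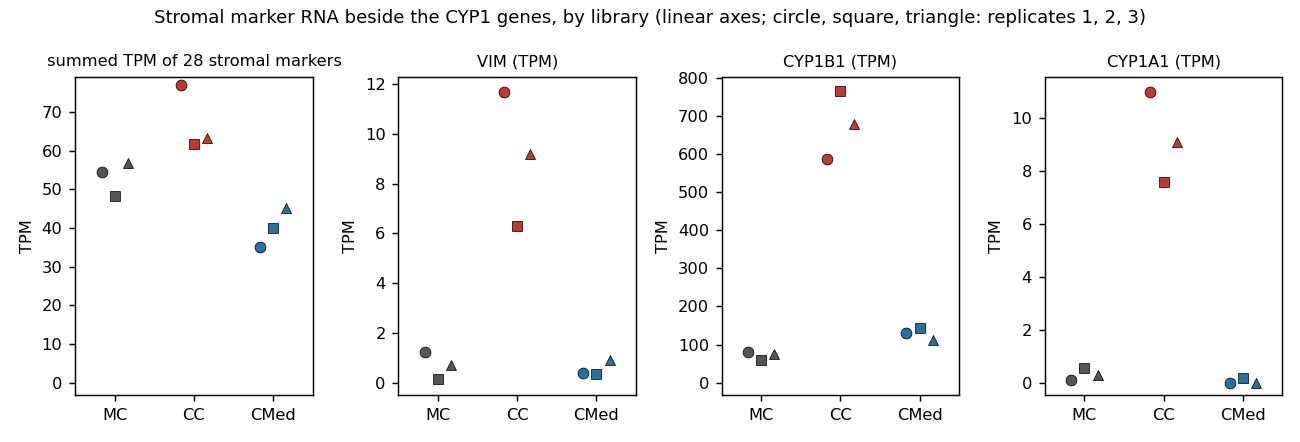
TPM (linear axes) of 28 stromal markers summed, VIM, CYP1B1 and CYP1A1 in each of the 9 libraries, with MC in grey, CC in red and CMed in blue. The stromal sum ran from 48.2 to 56.8 TPM in MC and from 61.6 to 76.9 TPM in CC, and CYP1B1 from 60.5 to 80.8 TPM and from 586 to 766 TPM.

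The 2 CYP1 genes had the widest differences of the 9 between contact culture and monoculture. CYP1B1 was the more abundant by far and was higher in CC than in CMed, and higher in CMed than in MC. CYP1A1 was at or near 0 without contact and was at several TPM in each CC library. Both genes were higher in each CC library than in any library of the other groups.

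CYP1B1 (ENSG00000138061.11, GRCh38 chr2:38066973-38109902, minus strand) was at 80.8, 60.5 and 75.7 TPM in MC replicates 1 to 3, at 586, 766 and 679 TPM in CC, and at 131, 143 and 113 TPM in CMed. The 3 groups did not overlap. Its mean was 72.3 ± 10.6 TPM in MC, 677 ± 90.1 TPM in CC and 129 ± 15.3 TPM in CMed (SD, n = 3 each). The mean in CC was thus 9.37 times that in MC (log2 fold change 3.21, SE 0.17) and 5.25 times that in CMed (2.38, SE 0.17). The mean in CMed was 1.78 times that in MC (0.83, SE 0.17), an interval of 0.45 to 1.21 on the log2 scale at 95% confidence. Without MC replicate 2 the log2 fold changes from MC were 3.09 for CC and 0.71 for CMed. In MC, CYP1B1 ranked above 92.8% of the genes tested, in CMed above 96.4% and in CC above 99.1%. The antisense gene CYP1B1-AS1, whose span overlaps that of CYP1B1, was at 0.899 to 4.38 TPM in MC and 4.24 to 7.09 TPM in CC.

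CYP1A1 (ENSG00000140465.13, GRCh38 chr15:74719542-74725610, minus strand) was at 0.105, 0.556 and 0.275 TPM in MC and at 11.0, 7.57 and 9.09 TPM in CC. In CMed it was listed at 0 in replicates 1 and 3 and at 0.173 TPM in replicate 2. Its mean was 0.312 ± 0.228 TPM in MC and 9.23 ± 1.74 TPM in CC (SD, n = 3 each), with no overlap between them. The log2 fold change of CC was 2.96 against MC (SE 0.24, 95% interval 2.43 to 3.49) and 3.26 against CMed (SE 0.24). These values depend on the constant added to a gene near 0, and the change from MC was 4.64 with 0.1 added in place of 1 and 1.42 with 5 added. CMed and MC overlapped (log2 fold change −0.30, 95% interval −0.83 to 0.23). Without MC replicate 2 the log2 fold changes from MC were 3.09 for CC and −0.17 for CMed. CYP1A1 itself reached the filter through the 3 CC libraries and 1 of MC. Of the CYP1 genes, CYP1B1 alone was thus higher in CMed than in MC, and that difference between the genes was not tested. CYP1A2, the close relative beside CYP1A1 in the genome and another classic AHR target, was at 1.26 ± 0.566 TPM in MC and 0.417 ± 0.341 TPM in CC (SD, n = 3 each) and did not pass the test (log2 fold change −0.67, limma adjusted p = 0.207). Of the 26 other CYP genes of families 1 to 4 in the table, 10 were tested and none passed the threshold in any comparison by limma, with 2 at an unadjusted p under 0.05 in CC against MC, where 20.3% of all genes tested were.

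**Figure D2:**
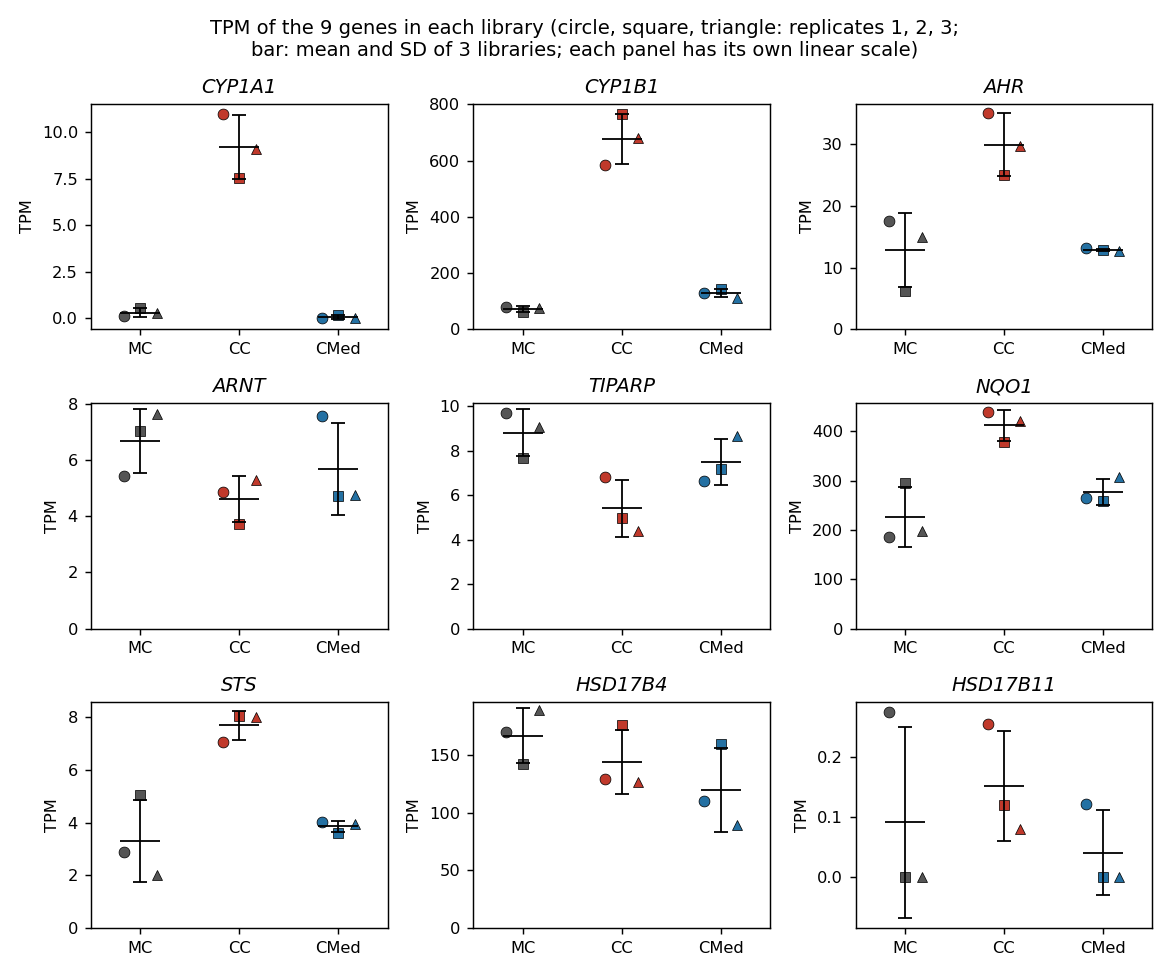
TPM of the 9 genes in each library, 1 panel per gene on its own linear axis, with points for replicates (circle 1, square 2, triangle 3) and bars for the mean and SD of 3 libraries. CC lies above MC and CMed for CYP1A1, CYP1B1, AHR, NQO1 and STS, and below MC for ARNT and TIPARP, while HSD17B4 overlaps in all comparisons and HSD17B11 stays under 0.3 TPM.

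The receptor was higher with contact, and its partner was not. AHR (ENSG00000106546.13, GRCh38 chr7:16916359-17346152, plus strand) was at 17.5, 6.14 and 14.9 TPM in MC, at 35.1, 25.0 and 29.7 TPM in CC, and at 13.1, 12.8 and 12.7 TPM in CMed. Each CC library was above each library of the other groups, and the low MC value was that of replicate 2. The mean in CC, 29.9 ± 5.03 TPM (SD, n = 3), was 2.33 times that in MC (log2 fold change 1.26, SE 0.32) and 2.32 times that in CMed (1.14, SE 0.32). Without MC replicate 2 the difference from MC was 0.84 (SE 0.17), and CMed, at 0.12 (SE 0.32) with all libraries, was at −0.31 (SE 0.17), so the sign of the small difference between CMed and MC rests on that library. The span of AHR overlaps those of other genes. Among them, AC019117.2 on the same strand was at 0, 1.11 and 0 TPM in MC and at 1.1e-08, 4.97 and 8.21 TPM in CC. On the opposite strand, AC073332.1 averaged 6.12 TPM in MC and 8.08 TPM in CC. How reads that fit more than 1 gene were shared out is not given in the sources used here.

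ARNT (ENSG00000143437.20, GRCh38 chr1:150809705-150876768, minus strand) was at 5.43, 7.03 and 7.63 TPM in MC, at 4.87, 3.72 and 5.30 TPM in CC and at 7.57, 4.73 and 4.75 TPM in CMed. Every CC library was below every MC library, but by little, and the log2 fold change of −0.45 (SE 0.23) had a 95% interval of −0.97 to 0.07. It was −0.42 without MC replicate 2, and that of CMed against MC −0.18. Scaled by relative log expression or by the upper quartile, the CC and MC libraries of ARNT overlapped. In MC the mean of AHR was 12.8 TPM and that of ARNT 6.70 TPM, with replicate 2 the only library where AHR was the lower of the pair, and in CC these were 29.9 and 4.63 TPM.

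TIPARP, an ADP-ribosyltransferase that AHR induces and that limits AHR activity in turn, was lower with contact. It (ENSG00000163659.12, GRCh38 chr3:156673235-156706770, plus strand) was at 9.72, 7.67 and 9.08 TPM in MC, at 6.84, 4.99 and 4.41 TPM in CC and at 6.66, 7.18 and 8.68 TPM in CMed. CC lay below MC without overlap (log2 fold change −0.63, SE 0.20, 95% interval −1.08 to −0.17, and −0.71 without MC replicate 2), and CMed overlapped with both (−0.30 against MC without MC replicate 2). The opposite-strand gene TIPARP-AS1 was at 5.74, 11.0 and 6.26 TPM in MC and at 13.6, 14.3 and 20.4 TPM in CC, the other direction. The library kit keeps the strand, but whether the counting used it is not given in the sources used here, so reads where these genes overlap may not have been told apart. AHRR, the AHR repressor and another feedback target, averaged 0.129 TPM in MC, 0.165 TPM in CC and 0.217 TPM in CMed and was below the filter. CYP1A1 and, at 1 of its 3 starts, TIPARP held the core.

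NQO1, a quinone reductase that AHR and NRF2 both induce and that detoxifies estrogen quinones, was abundant in each group and highest in CC. NQO1 (ENSG00000181019.12, GRCh38 chr16:69706996-69726951, minus strand) was at 186, 296 and 197 TPM in MC, at 439, 378 and 420 TPM in CC and at 265, 259 and 307 TPM in CMed. CC lay above both other groups, and MC replicate 2 was the only MC library within the range of CMed. The log2 fold change of CC was 0.89 against MC (SE 0.19, and 1.10 without MC replicate 2) and 0.57 against CMed (SE 0.19). CMed against MC was 0.32 (SE 0.19) with all libraries and 0.53 (95% interval 0.23 to 0.82) without MC replicate 2.

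Of the 3 genes of estrogen supply and removal, STS was higher in CC, HSD17B4 overlapped between groups with all libraries and HSD17B11 was hardly detected. STS, the steroid sulfatase that frees estrone and other steroids from their sulfates (ENSG00000101846.6, GRCh38 chrX:7219456-7354810, plus strand), was at 2.89, 5.04 and 2.01 TPM in MC, at 7.06, 8.04 and 8.00 TPM in CC and at 4.02, 3.62 and 3.94 TPM in CMed. The mean in CC, 7.70 ± 0.557 TPM (SD, n = 3), was 2.32 times that in MC (log2 fold change 1.07, SE 0.25, and 1.34 without MC replicate 2) and 1.99 times that in CMed (0.84, SE 0.25). CMed against MC was 0.23 (SE 0.25) with all libraries and 0.50 (SE 0.18) without MC replicate 2, the highest of its group. STS has a pseudogene copy, and how reads that fit more than 1 gene were shared out is not given in the sources used here. HSD17B4, a peroxisomal enzyme of fatty acid oxidation that also oxidizes estradiol to estrone (ENSG00000133835.15, GRCh38 chr5:119452443-119637199, plus strand), was at 170, 142 and 189 TPM in MC, at 129, 176 and 127 TPM in CC and at 110, 160 and 89.3 TPM in CMed. The groups overlapped in all 3 comparisons, and the 95% interval of CC against MC was −0.75 to 0.31 on the log2 scale (log2 fold change −0.33 without MC replicate 2). HSD17B4 was lower in CMed than in MC by a log2 fold change of −0.50 (95% interval −1.03 to 0.02). The difference was −0.62 without MC replicate 2, with a 95% interval of −1.20 to −0.03, and without MC replicate 2 or CMed replicate 2 every CMed library of HSD17B4 was below every MC library. Without CC replicate 2 each CC library was below each MC library, and without CMed replicate 2 each CC library was above each CMed library. HSD17B11, a dehydrogenase of lipid droplets (ENSG00000198189.10, GRCh38 chr4:87336610-87391386, minus strand), was at 0.275, 0 and 0 TPM in MC, at 0.256, 0.121 and 0.0813 TPM in CC and at 0.123, 0 and 0 TPM in CMed. It did not pass the filter and no fold change is given.

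**Figure D3:**
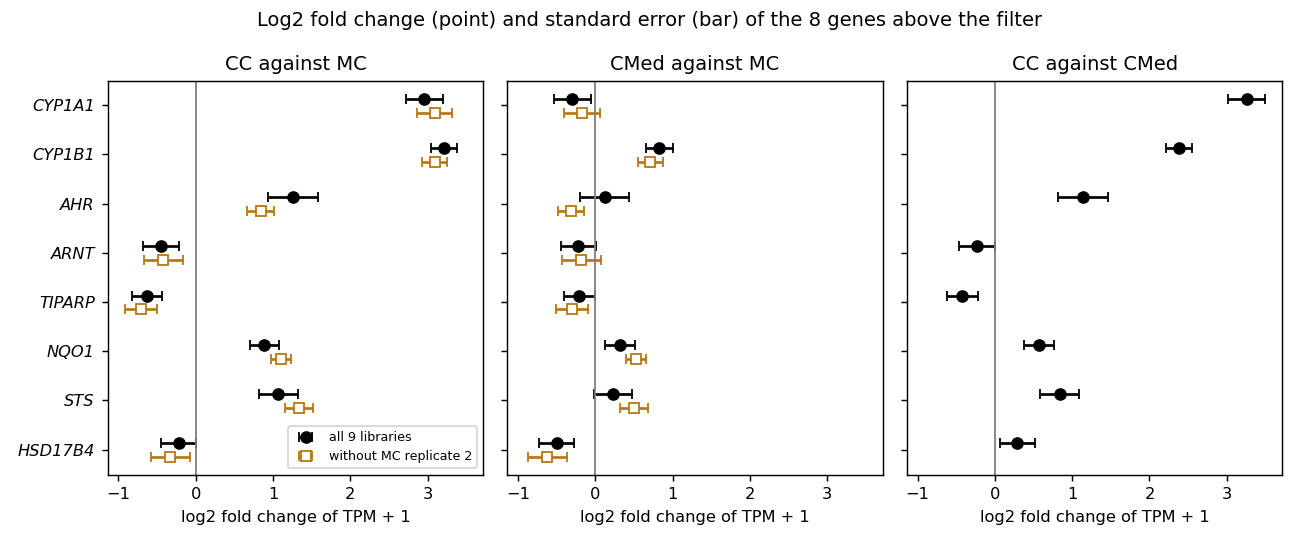
Log2 fold change of TPM + 1 (points) with its SE (bars) for the 8 genes above the filter in the 3 comparisons, with all 9 libraries (black) and without MC replicate 2 (open squares). CYP1A1 and CYP1B1 stand at 2.96 and 3.21 in CC against MC, and in CMed against MC only CYP1B1, at 0.83, lies above 0.5 with all libraries.

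Over the 9 genes, 5 were higher and 2 lower without overlap in CC against MC, where 9.0% of all genes tested were higher and 15.3% lower in that way. In CMed against MC 1 gene, CYP1B1, was higher without overlap and none was lower (6.67% and 14.2% of all genes). That count became 3 higher and 3 lower without MC replicate 2, and 2 to 3 in all without 1 of MC replicate 1, CMed replicate 1, CMed replicate 2 or CMed replicate 3. In CC against CMed 5 were higher and none lower (12.4% and 9.93% of all genes). The median log2 fold change of the 8 genes above the filter was 0.98 in CC against MC, −0.05 in CMed against MC and 0.71 in CC against CMed, beside −0.08, −0.10 and 0.00 over all genes. Because the 9 genes were chosen with these libraries in view and CC and CMed share the MC libraries, nothing is read from these counts. By order of level, NQO1, HSD17B4 and CYP1B1 led in MC, CYP1B1, NQO1 and HSD17B4 in CC, and NQO1, CYP1B1 and HSD17B4 in CMed. Neighbours in this order whose libraries overlapped were NQO1 and HSD17B4 in MC, and CYP1B1 (113 to 143 TPM) and HSD17B4 (89.3 to 160 TPM) in CMed. Lower down, AHR overlapped with TIPARP in MC, CYP1A1 (7.57 to 11.0 TPM) with STS (7.06 to 8.04 TPM) in CC, and TIPARP with ARNT in CC and CMed. HSD17B11 had the lowest mean in each group, but its libraries overlapped with those of CYP1A1 in MC and CMed.

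The rest of the pathway was followed in 163 other genes of 14 lists, of which 148 were in the table and 112 were tested. These lists too were chosen with earlier results of these data known. Nothing is therefore read from their counts beside the shares of all genes. In CC against MC 5 of the 112 were higher and 2 lower past an adjusted p of 0.05, where 2.15% of all genes tested were higher and 2.84% lower. Of the 5 higher, 2 reached the filter in CC libraries only and had to differ to be tested. The 7 were 5 of 11 other AHR target genes, 1 of 5 AHR chaperones and 1 of 9 genes of the bHLH-PAS family to which AHR and ARNT belong. At an unadjusted p under 0.05 there were 32 of the 112, where 20.3% of all genes tested were. In CMed against MC 1 gene was lower and none higher (0.677% and 0.707% of all genes), and 21 of the 112 had an unadjusted p under 0.05 (15.7% of all genes). In CC against CMed none passed by limma (0.21% of all genes were higher and 0.162% lower), and 23 had an unadjusted p under 0.05 (12.2% of all genes). The 7 of CC against MC became 2 without MC replicate 1 or CC replicate 3, 4 without MC replicate 3, 15 without MC replicate 2, and 2 when only the MC and CC libraries were fitted. SLC7A5 and STC2 passed in each of these fits.

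Among the other AHR target genes, SLC7A5 and NFE2L2 rose and STC2 fell in CC against MC. SLC7A5, an amino acid transporter that carries tryptophan and kynurenine, was at 1.59, 1.78 and 1.76 TPM in MC and at 12.5, 6.73 and 8.63 TPM in CC, with no overlap, and CMed lay between at 3.07 to 3.31 TPM. It rose by a log2 fold change of 1.89 (SE 0.23, limma adjusted p = 0.00217) and passed in 6 of 6 fits that leave out a library. NFE2L2, which encodes NRF2, was at 59.2, 63.7 and 66.6 TPM in MC and at 105, 120 and 110 TPM in CC, a log2 fold change of 0.81 (SE 0.14, adjusted p = 0.0114, 4 of 6 fits). IL1B and PTGS2, the other calls of the list, reached the filter in CC libraries only, so a difference was built into their being tested and no p is given for them. IL1B, the cytokine interleukin-1 beta, averaged 0.233 TPM in MC and 2.07 TPM in CC. PTGS2, the prostaglandin synthase COX-2, named as the last call of the list, was listed at 0 in each MC and CMed library and at 0.787, 0.801 and 0.667 TPM in CC. Each of them was past the threshold in 1 of 6 fits that leave out a library.

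STC2, a secreted glycoprotein and AHR target that estrogen also induces, went the other way. It was at 493, 534 and 402 TPM in MC, at 117, 138 and 128 TPM in CC and at 206, 211 and 218 TPM in CMed, and the 3 groups did not overlap. It fell by 1.89 on the log2 scale in CC (SE 0.14, limma adjusted p = 0.000196) and by 1.16 in CMed (SE 0.14, adjusted p = 0.00611), in 6 of 6 fits each. STC2 was the 1 pathway gene past the threshold in CMed against MC. Without MC replicate 2 that count was 7, and the others were EPAS1, HES1, HSD17B1, NEDD9, PARP9 and PTGES3. HES1, a transcriptional repressor listed among the AHR targets, shows how far that library stood apart, at 203 TPM against 2670 and 2420 TPM in the other MC libraries. In CMed HES1 was at 201, 170 and 188 TPM, near the level of MC replicate 2, and in CC at 741, 628 and 750 TPM. Without MC replicate 2 HES1 was also lower in CC (log2 fold change −1.85, limma adjusted p = 0.000245).

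The machinery around the receptor differed little. PTGES3, the p23 cochaperone of HSP90 in the cytoplasmic AHR complex, was at 428, 364 and 409 TPM in MC and at 252, 245 and 257 TPM in CC, and fell by 0.66 on the log2 scale (SE 0.12, limma adjusted p = 0.0172, 3 of 6 fits). EPAS1, the hypoxia factor HIF-2α that also pairs with ARNT, was at 2.10, 5.49 and 4.16 TPM in MC and at 10.3, 10.9 and 9.03 TPM in CC, and rose by a log2 fold change of 1.23 (SE 0.26, adjusted p = 0.0297, 1 of 6 fits). Its level in CMed, 8.82 to 9.86 TPM, was 1.14 above MC on the log2 scale and missed the threshold (adjusted p = 0.0785). EPAS1 had log2 fold changes of 1.47 in CC and 1.37 in CMed without MC replicate 2, and both passed (limma adjusted p = 0.0085 and 0.016). None of 10 coregulators passed by limma in CC against MC, adjusted or unadjusted, among them CREBBP (129 TPM in MC and 152 TPM in CC) and SMARCA4 (122 and 109 TPM). Nor did any of 3 enzymes tested that make tryptophan-derived AHR ligands, KYAT3 at 15.3 and 16.0 TPM and KYAT1 at 2.23 and 2.68 TPM among them. IDO1 and TDO2, which open the kynurenine pathway, were at 0 in all MC and CC libraries. Of 16 other genes of the PARP family, to which TIPARP belongs, none passed in CC against MC by limma and 3 had an unadjusted p under 0.05, with PARP1 at 51.4 and 61.8 TPM and PARP14 at 17.9 and 29.7 TPM in MC and CC. PARP2 (log2 fold change −1.01), PARP6 (1.42) and PARP14 (0.94) passed without MC replicate 2 (limma adjusted p = 0.0373, 0.0156 and 0.0457).

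**Figure D4:**
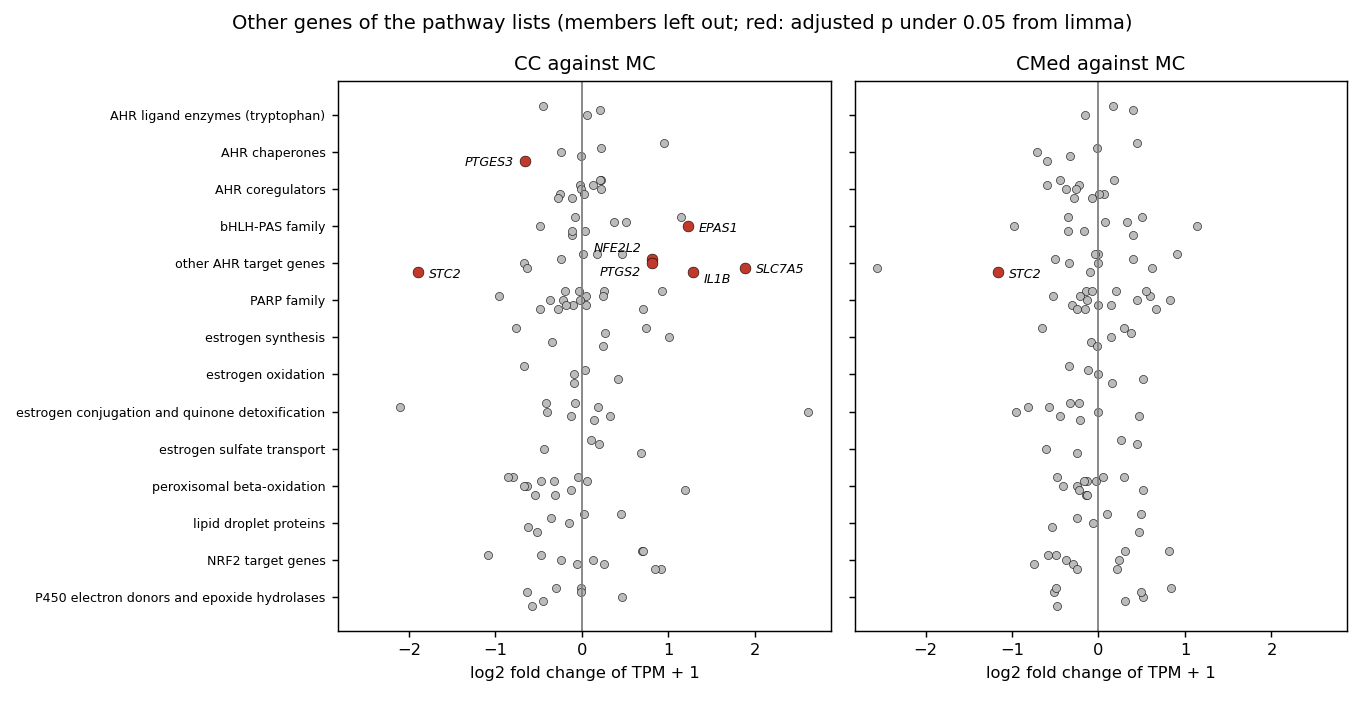
Log2 fold change of TPM + 1 for the tested genes of the 14 pathway lists in CC against MC (left) and CMed against MC (right), 1 point per gene, with genes past an adjusted p of 0.05 from limma in red. In CC against MC 5 genes lie to the right and 2 to the left, and in CMed against MC STC2, at −1.16, is the 1 red point.

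The other genes of estrogen metabolism did not pass the test in any comparison, and the p values do not show that they were alike. At an unadjusted p under 0.05 in CC against MC there were 3 of 6 genes of estrogen synthesis, 1 of 5 of oxidation, 2 of 9 of conjugation and 1 of 4 of sulfate transport, beside 20.3% of all genes tested. HSD17B12, which elongates fatty acids and can reduce estrone, was at 29.0, 9.94 and 33.4 TPM in MC and at 40.7, 50.9 and 41.6 TPM in CC, without overlap (log2 fold change 1.01, SE 0.37, limma adjusted p = 0.166). HSD17B1, which makes estradiol from estrone, was at 17.9 TPM in MC and 20.0 TPM in CC on average (0.27, adjusted p = 0.686), and passed in CC and in CMed against MC without MC replicate 2. For estrogen oxidation, HSD17B10 was at 50.4 TPM in MC and 46.6 TPM in CC (−0.09, SE 0.22) and HSD17B8 at 0.998 and 0.852 TPM. Among the 6 tested genes of the HSD17B family other than the 9 followed here, 0 passed by limma and 1 had an unadjusted p under 0.05 in CC against MC. Of the genes of conjugation and quinone removal, the sulfotransferase SULT1A1 was at 14.4 TPM in MC and 10.9 TPM in CC. The near-identical SULT1A genes make these values uncertain. GSTP1 and GSTM1 of this list were named after their values were seen. GSTP1 was listed at 0 in each MC and CMed library and at 4.16, 1.13 and 20.2 TPM in CC. It reached the filter in CC libraries only, so no p is given, and it passed with 0.1 added and without CC replicate 2. GSTM1 was at 0.618, 8.19 and 4.28 TPM in MC and at 0 in each CC library (log2 fold change −2.10, limma adjusted p = 0.116). Of the transporters of estrogen sulfates, SLCO4A1 was at 0.970 TPM in MC and 2.20 TPM in CC (0.68, adjusted p = 0.144) and SLCO1A2 at 0.549 and 0.764 TPM.

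The genes that share a compartment or a partner with the 9 did not pass the test either in CC against MC with all libraries. Without MC replicate 2, PGD (log2 fold change 1.17, limma adjusted p = 0.0146), SLC7A11 (0.87, 0.0396) and CYB5R3 (−0.66, 0.0443) passed there, named as the calls of that fit. Without CC replicate 1, SRXN1 passed with a lower level in CC (−1.92, limma adjusted p = 0.0372). None of 12 genes of peroxisomal β-oxidation, where HSD17B4 works, passed by limma, 5 had an unadjusted p under 0.05 (20.3% of all genes tested), and their median log2 fold change was −0.39, beside −0.08 over all genes. Without overlap, 1 of the 12 was higher and 4 were lower (9.0% and 15.3% of all genes tested). The higher one, ACOX2, was at 4.70, 2.30 and 4.78 TPM in MC and at 11.5, 7.75 and 10.8 TPM in CC (log2 fold change 1.19, limma adjusted p = 0.0608). SCP2 was at 47.7 TPM in MC and 34.7 TPM in CC and CAT (catalase) at 31.5 and 25.3 TPM. None of 6 lipid droplet genes passed (1 unadjusted), with ABHD5 at 39.6 and 54.3 TPM and PNPLA2, the main triglyceride lipase, at 16.7 and 16.6 TPM. None of 10 other NRF2 target genes passed (4 unadjusted), among them TKT at 179 and 178 TPM and TALDO1 at 26.2 and 29.4 TPM, and their median was 0.19. Of the 7 electron donors of P450 enzymes and epoxide hydrolases, none passed (2 unadjusted). POR, the reductase on which CYP1 enzymes depend, was at 43.3 TPM in MC and 41.4 TPM in CC (log2 fold change −0.01, SE 0.26), and CYB5A (cytochrome b5) at 66.1 and 67.4 TPM.

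The genes with the pattern most like that of each CYP1 gene, by the mean absolute difference of centred log2 values over the 9 libraries, were sought among 12670 genes, and 3 were taken for each. For CYP1A1 these were TFPI2, a secreted protease inhibitor (mean difference 0.17), FST, which encodes the activin antagonist follistatin (0.38), and DUSP6, a phosphatase of the ERK pathway (0.38). TFPI2 was at 0, 0.182 and 0 TPM in MC, at 10.1, 9.43 and 9.69 TPM in CC and at 0 in each CMed library. For CYP1B1 these were FST (0.33), CRH, the corticotropin-releasing hormone (0.33), and the noncoding IER3-AS1 (0.36). CRH was at 0.563 ± 0.368 TPM in MC, 12.6 ± 1.27 TPM in CC and 3.56 ± 1.18 TPM in CMed (SD, n = 3 each), the same order of groups as CYP1B1. IER3-AS1 followed that order too, with 93.7, 615 and 244 TPM on average in MC, CC and CMed, though its reads may not have been told apart from those of its partner IER3 on the other strand.

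**Figure D5:**
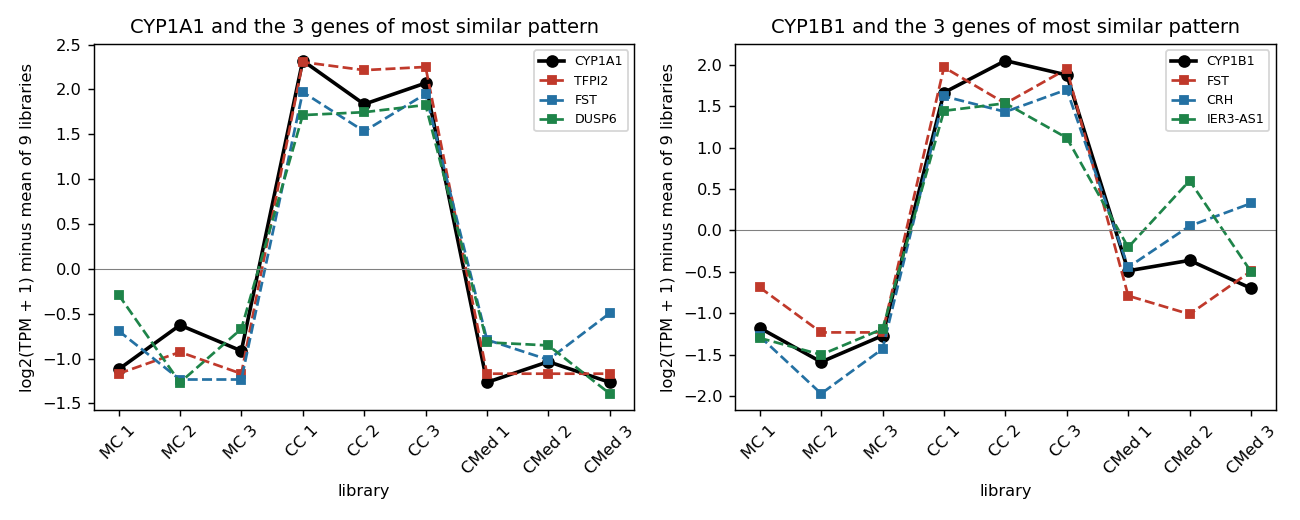
Log2(TPM + 1) minus the mean of the 9 libraries for CYP1A1 (left) and CYP1B1 (right), in black, and for the 3 genes of most similar pattern in each, by library. The lines of CYP1A1 and TFPI2 differ by 0.17 on average, and the 3 CC libraries are highest in each line.

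For STS the closest were NEU1, a lysosomal sialidase (0.11), HS6ST3, a heparan sulfate sulfotransferase (0.13), and PXDN, a peroxidase of the extracellular matrix (0.13). NEU1 was at 19.8, 38.0 and 18.6 TPM in MC and at 58.7, 67.4 and 59.8 TPM in CC, with replicate 2 the highest of MC as for STS. For TIPARP the closest were PGAM5, a mitochondrial phosphatase, MTM1, a phosphoinositide phosphatase, and PGAP1, which remodels GPI anchors (0.09 each). PGAM5 was at 5.85 ± 0.529 TPM in MC and 3.31 ± 0.283 TPM in CC (SD, n = 3 each). The patterns of the last 3 span a narrow range, so a small difference says little there. These genes were found by their likeness to a gene chosen on the same libraries, so no test of them is given.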

How the data were processed

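T47D RNA was measured by bulk sequencing in 9 libraries, 3 per group, grouped by the sample labels. The authors trimmed reads with Trim Galore 0.5.0 and aligned them with STAR 2.6.0, per the submitters' processing notes. Genome build, annotation and quantifier: not given in the sources used here. The authors deposited values taken here to be natural log values, ln(TPM + 1), because so read each library sums to 884208 to 909618, close to the total that defines TPM. Read counts were not used here, so depth and counting error are unknown. The 160 rows of RNA families (0.0295% to 0.077% of a library) were left out and the rows of 481 symbols with several rows were summed.

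Values were returned to TPM and tested as log2(TPM + 1) with limma 3.58.1 in R 4.3.3 over all 9 libraries (1 coefficient per group, trend and robust, 2-sided, Benjamini-Hochberg adjustment over 16696 genes, threshold 0.05). The fit was tested on simulated data. Python 3.11.15, pandas 2.3.3, numpy 2.4.6 and matplotlib 3.10.9 did the rest. The 9 genes and the lists were chosen with earlier results of these data known. Named besides the 9 were, per list, up to 4 genes past the threshold in a comparison or else the 2 of highest mean TPM, the 3 genes of most similar pattern for CYP1A1, CYP1B1, TIPARP and STS (mean log2 value of at least 1), and VIM, FN1, COL1A1 and EPCAM. Other genes were named after their values were seen. Some results are not reported here. Coordinates and identifiers were matched by symbol in GENCODE 29 (GRCh38). Promoter sequences are those of RefSeq on GRCh38.p14. Alternatives were other added constants (0.1 and 5), no filter and a filter at 1 TPM, other scalings, a fit of the 2 groups alone, a replicate block, no trend and no robust step, the largest row of each symbol, and each library left out in turn.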

Additional observations from a re-analysis of the deposited data

How the results depend on the processing

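The added constant moved the differences of genes near 0 most. For CYP1A1 the log2 fold change in CC against CMed was 6.04 with 0.1 added and 1.49 with 5 added, and that in CMed against MC −1.40 and −0.07. With 5 added, TIPARP was at −0.41 in CC against MC and STS at 0.63 there and 0.52 in CC against CMed. The log2 fold changes of the 8 genes kept their direction under all alternatives but for AHR in CMed against MC without MC replicate 2 (−0.31) and STS in CMed against MC without MC replicate 3 (0.00). Pathway genes past the threshold in CC against MC, 7 in all, were 2 to 15 when 1 library was left out and 2 with only the 2 groups compared. In CMed against MC, where 1 passed, they were 1 to 7 when 1 library was left out, 2 with a filter at 1 TPM and 2 with relative log expression scaling. In CC against CMed, where 0 passed, 1 did with only the 2 groups compared. Of the 9 genes, 1 to 6 did not overlap in CMed against MC when 1 library was left out. Scaling by relative log expression moved the median of all genes by 0.102 in CMed against MC and 0.088 in CC against MC, and the calls over all genes from 359 higher and 474 lower to 440 and 301 in CC against MC, and from 118 and 113 to 146 and 53 in CMed against MC. ARNT in CC against MC came to overlap under that and under upper quartile scaling, and no other gene of the 9 that did not overlap with all libraries came to overlap under the alternatives run.

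With the replicate number as a block, 5 pathway genes passed in CC against MC (ACOX2, which did not pass without the block, at an adjusted p of 0.0457), 1 in CMed against MC and 0 in CC against CMed. The numbers did not pair the libraries, since deviations of same-numbered libraries correlated at −0.0423 to 0.109. The cause of these changes was not tested. Depth is unknown, so values under about 1 TPM, such as those of HSD17B11, AHRR and CYP1A1 outside CC, carry a counting error that could not be given.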
